A study of Homo sapiens with 6 samples.

Results

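The genes described here are 52 genes of the transforming growth factor beta (TGF-beta) and bone morphogenetic protein (BMP) pathways, chosen by name from a table of 57781 gene rows: 11 ligands, 12 receptors, 11 extracellular regulators, 8 SMADs, 4 SMAD ligases and co-repressors and 6 target genes. All 52 had a row in the table. They were measured by RNA sequencing in the human lung adenocarcinoma cell line A549. The vector group held 3 libraries labelled as wild type, and the shMETTL3 group held 3 libraries from cells in which METTL3, the catalytic subunit of the complex that writes N6-methyladenosine on mRNA, was knocked down by short hairpin RNA. The labels name no pathway ligand or inhibitor for either group, and the cells were grown in medium with serum. The methods of the study say in general that experiments were repeated independently, but nothing ties this to these libraries or says whether each shMETTL3 library carried its own hairpin, so the p-values below measure only the spread between these libraries, which may be technical.

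TGF-beta, activin and BMP ligands are secreted dimers that bring together type I and type II receptor kinases at the cell surface. The type I receptor then phosphorylates receptor SMADs, classically SMAD2 and SMAD3 for TGF-beta and activins and SMAD1, SMAD5 and SMAD9 for BMPs, which enter the nucleus with SMAD4 and act on target genes. Several targets feed back on the pathway, among them the inhibitory SMADs, SKIL and PMEPA1, and secreted antagonists such as noggin, gremlin and chordin bind BMPs before they reach a receptor. In epithelial and lung cancer cells, TGF-beta is known both for holding back growth and for driving epithelial-mesenchymal transition.

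The knockdown itself was checked first. METTL3 had 49.4, 50.6 and 49.5 CPM (read counts relative to the library total, scaled by TMM) in vector replicates 1, 2 and 3 and 18.9, 19.9 and 19.3 CPM in shMETTL3 replicates 1, 2 and 3, which left 38.8% of the vector level (log2 fold change -1.36, p = 0.1 in a two-sided exact permutation test, which cannot go lower with 3 libraries against 3). Library totals lay between 14931426 and 19108928 counts, at which 3 counts stand at 0.150 to 0.189 CPM. The epithelial origin of the cells was visible in KRT7, KRT8 and KRT18, although the summed level of 6 epithelial markers was lower in shMETTL3, at 5153 to 5602 CPM against 9971 to 10634 CPM, with 5 of the 6 markers lower and KRT7 higher. Markers of other cell types were low in both groups. The 6 fibroblast markers summed to 2.04 to 3.19 CPM in vector and 4.47 to 6.42 CPM in shMETTL3, with THY1 the only marker called higher. The 3 endothelial markers with a row summed to 0 to 0.123 and 1.40 to 1.95 CPM, with VWF at 0 counts throughout and CDH5 higher. The 4 haematopoietic markers summed to 0.299 to 0.981 and 5.84 to 6.74 CPM, with CD3E at 0 counts throughout and CD14 higher and making up most of the sum. The part of these shifts in the results below was not tested, and in bulk RNA a change in the share of cells of a type and a change in RNA per cell cannot be told apart.

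Of the 52 genes, 49 passed the filter on low counts, and 35 of them, or 71.4%, were called as different between the groups, that is, had an adjusted p below 0.05 with the quasi-likelihood test of edgeR. Over all 15125 genes tested the share was 66.6%, so that the number of pathway genes called was near the background. The direction was less even, but the genes were chosen with earlier results of these data known, so the shares by direction are descriptions only. On the list 25 genes were higher in shMETTL3 and 10 lower, or 51.0% and 20.4% of those tested, where 33.7% and 32.9% of all tested genes were higher and lower. The median log2 fold change was 0.21 for the 49 genes and 0.0022 for all tested genes. A change of at least 1.5-fold was found for 18 of the 49 genes, or 36.7%, against a background of 34.4%, and of these 14 were higher and 4 lower, where the background shares were 17.9% higher and 16.5% lower. The 2 groups of libraries did not overlap for 35 of the 49 genes, or 71.4%, against 69.4% of all tested genes. The exceptions to a match between the call and the overlap were GDF11, called lower with overlapping groups, and TGFBR3, not called with separate groups.

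**Figure D1:**
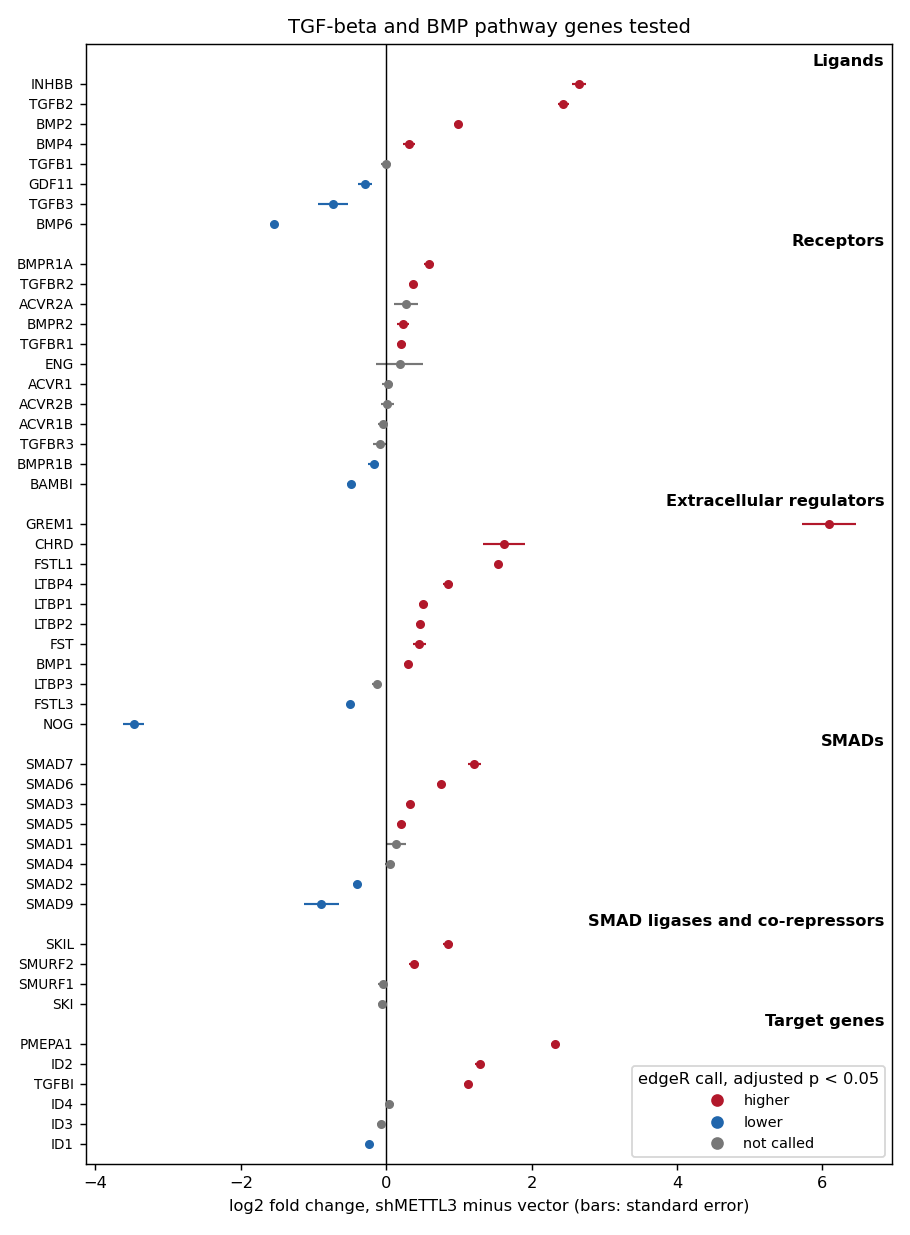
Log2 fold change (shMETTL3 minus vector, x axis) of the 49 tested pathway genes, ordered within 6 roles. Points are edgeR estimates from 3 libraries a group with their standard error as bars, and colour gives the call. Values run from -3.47 for NOG to 6.09 for GREM1, and the receptors lie between -0.49 and 0.59.

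Before the single genes, the sequences at their start sites are shown, since SMAD proteins bind short DNA elements. RefSeq promoter windows of 300 bases (250 before and 50 after each start, GRCh38.p14) were found for 47 of the 52 genes, 82 windows in all. The other 5 were BMP2, BMP7, BMP1, NOG and SKI. The palindromic SMAD element GTCTAGAC was present in 1 of the 82 windows, 1.22%, in 0.202% of all 35114 windows and in 0.141% of windows of tested genes. That window belongs to SMAD6. The CAGA box CAGACA, searched on both strands, was in 17 windows, 20.7%, against 16.9% of all windows and 13.5% of windows of tested genes. GGCGCC, a GC-rich SMAD element, was in 23 windows, 28.0%, against 19.2% of all windows and 28.5% of windows of tested genes. The AP-1 element TGAGTCA was in 4 windows, 4.88%, against 4.95% of all windows and 3.76% of windows of tested genes. GTCTAGAC and the CAGA box share the letters AGAC, but neither contains the other. By call, GGCGCC was in 30.4% of the windows of genes that were higher, 30.8% of those lower and 23.8% of those not called, and the CAGA box in 26.1%, 7.69% and 14.3%, over 46, 13 and 21 windows. These shares are descriptions with no test, and a match is a match of letters only. Of the 13 genes with a window that were higher by at least 1.5-fold, 8 had GGCGCC and 4 the CAGA box in at least 1 window, where 3870 and 1851 of 10634 tested genes did. By window these were 40.0% and 20.0% of the 20 windows of the 13 genes. The windows of 30 bases below are examples: the palindrome of SMAD6, the CAGA box at the 4 genes of that group that hold it, GGCGCC at 3 of the 8, and then GGCGCC at BAMBI and FSTL3, which were lower, and at ACVR1B, which was not called. They are read in the direction of the gene with the matched letters in capitals.
SMAD6, chr15:66702213-66702242, plus strand: gccgccaaagtGTCTAGACtggcatatgat
TGFB2, chr1:218345271-218345300, plus strand: ctttgttgaaggCAGACAcgtggttcagag
PMEPA1, chr20:57710675-57710704, minus strand: ccccttgggcagCAGACAatgggtgtggat
GREM1, chr15:32717796-32717825, plus strand: gggcggggggagCAGACAaagaggcgaggc
LTBP4, chr19:40592979-40593008, plus strand: tgcatgccaggaTGTCTGgaatgctgagaa
PMEPA1, chr20:57711662-57711691, minus strand: gcaggggctgagGGCGCCcagttcacagca
TGFBI, chr5:136028865-136028894, plus strand: cacgggttgggaGGCGCCaggcggcccgcc
SKIL, chr3:170357513-170357542, plus strand: gcccgcgcgcgcGGCGCCgccgctggctcc
BAMBI, chr10:28677300-28677329, plus strand: gcgcaccagccgGGCGCCccagccgggcgc
FSTL3, chr19:676255-676284, plus strand: gcggccgggcccGGCGCCtgcccaccccgc
ACVR1B, chr12:51951527-51951556, plus strand: ccctttaaggcgGGCGCCcgcgcgcgcccc
In LTBP4 the CAGA box lies on the strand opposite to the gene and reads TGTCTG as shown. Counted from the start site, the SMAD6 palindrome begins at -12, the TGFB2 match at -53 and the GREM1 match at -196. PMEPA1 has 1 window with a CAGA box and another, at a different start site, with GGCGCC.

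Among the ligands, TGFB2 and INHBB rose most and BMP6 fell most. Of the 11 ligand genes, 8 were tested, 4 were higher and 3, or 37.5%, lower, against 33.7% higher and 32.9% lower of all tested genes, so that the share that was lower was near the background. TGFB2 encodes 1 of the 3 TGF-beta isoforms and is annotated at 218518678 to 218617961 on chromosome 1 (GRCh37, plus strand). It had 13.5, 12.7 and 12.1 CPM in the vector libraries and 66.2, 71.7 and 70.4 CPM in the shMETTL3 libraries, a 5.43-fold rise (log2 fold change 2.44, standard error 0.072, adjusted p = 5.23e-21). The lowest shMETTL3 library thus stood far above the highest vector library. Exons of TGFB2 overlap 701 bases of TGFB2-AS1 on the opposite strand. TGFB2-AS1 had 63 counts over the vector libraries and 374 over the shMETTL3 libraries, with a log2 fold change of 2.44, the same as TGFB2 at this precision, and whether reads were counted by strand is not given in the sources used here, so the pair cannot be separated with certainty.

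TGFB1, the isoform with the highest level per kb of exon in the vector libraries, was not called. Its values ran from 75.2 to 99.1 CPM in vector and from 84.3 to 87.3 CPM in shMETTL3, so that the shMETTL3 libraries lay inside the range of the vector libraries (log2 fold change 0.0023, standard error 0.069). TGFB3 moved the other way from TGFB2, from 3.06, 3.71 and 3.86 CPM to 1.61, 2.34 and 2.46 CPM (log2 fold change -0.73, standard error 0.20, adjusted p = 0.00247). Per kb of exon, TGFB2 made up 7.37% ± 1.30 (SD, n = 3) of the summed level of the 3 isoforms in vector and 30.01% ± 0.532 in shMETTL3, while TGFB1 went from 90.3% ± 1.33 to 68.9% ± 0.696. The size of this step depends on the gene length used. With the coding length alone, TGFB2 went from 12.0% ± 2.01 to 42.6% ± 0.592. The summed level of the 3 isoforms was 29.1 ± 3.68 CPM per kb in vector and 38.2 ± 1.0 in shMETTL3, and every shMETTL3 library was above every vector library.

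INHBB encodes the beta B subunit of activin B and is annotated at 121103712 to 121109379 on chromosome 2 (GRCh37, plus strand), with no annotated exon on the opposite strand. Its level went from 4.46, 4.79 and 4.72 CPM in vector to 29.9, 27.8 and 30.3 CPM in shMETTL3, 6.30-fold higher (log2 fold change 2.65, standard error 0.098, adjusted p = 8.33e-19). The values within each group were nearly the same, and the groups were far apart. INHBA, which encodes the beta A subunit, was near the limit of detection, with 1, 2 and 0 counts in vector and 3, 7 and 7 counts in shMETTL3, a ratio of 5.23 with a 95% counting interval from 1.51 to 27.9. INHBA and NODAL were too low to be tested. NODAL had 1, 2 and 0 against 6, 3 and 2 counts, with an interval from 0.894 to 18.9 that includes 1. GDF11, an activin-type ligand, was called lower at a log2 fold change of -0.29, although its groups overlapped, and the call was lost with scaling by library size alone (adjusted p = 0.292, edgeR).

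The BMP ligands changed in opposite directions. BMP2 (chromosome 20 of GRCh37, 6748333 to 6760893, plus strand) had 70.1, 72.4 and 69.5 CPM in the vector libraries and 135, 139 and 148 CPM in the shMETTL3 libraries (log2 fold change 0.99, standard error 0.054, adjusted p = 4.36e-15), close to a doubling of 1.99-fold. BMP6 (chromosome 6, 7726332 to 7881961, plus strand), a BMP known for its part in iron regulation, fell from 120.3, 109.7 and 119 CPM to 38.3, 42.5 and 39.1 CPM (log2 fold change -1.54, standard error 0.06, adjusted p = 2.33e-18), so that 34.3% of its level was left. In both genes the libraries of a group lay close together and the groups were clearly apart. Exons of BMP6 overlap TXNDC5 on the opposite strand, which had 13 and 22 counts in all over the groups. BLOC1S5-TXNDC5, which overlaps BMP6 on the same strand as TXNDC5, had 0 counts in both groups. How reads of overlapping genes were counted is not given, so these low counts do not show how strongly TXNDC5 is transcribed. BMP4 was higher by a small margin, at a log2 fold change of 0.31 (adjusted p = 0.00192), and BMP7 had between 1 and 15 counts a library and was not tested.

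Measured per kb of exon, the leading BMP ligand changed from BMP6 to BMP2. BMP6 made up 54.8% ± 1.96 (SD, n = 3) of the summed level of BMP2, BMP4, BMP6 and BMP7 in vector and 18.5% ± 0.970 in shMETTL3, and BMP2 went from 35.5% ± 1.32 to 69.5% ± 1.72. Their sum was 56.2 ± 1.0 CPM per kb in vector and 57.0 ± 1.61 in shMETTL3, a difference that was smaller than the spread of the shMETTL3 libraries. With the coding length in place of the exon length, BMP6 went from 50.8% to 16.1% and BMP2 from 39.9% to 73.1%, but the sum was then 149 ± 2.28 in vector and 162 ± 4.84 in shMETTL3, with every shMETTL3 library above every vector library. Whether the sum differed thus depends on the length used.

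**Figure D2:**
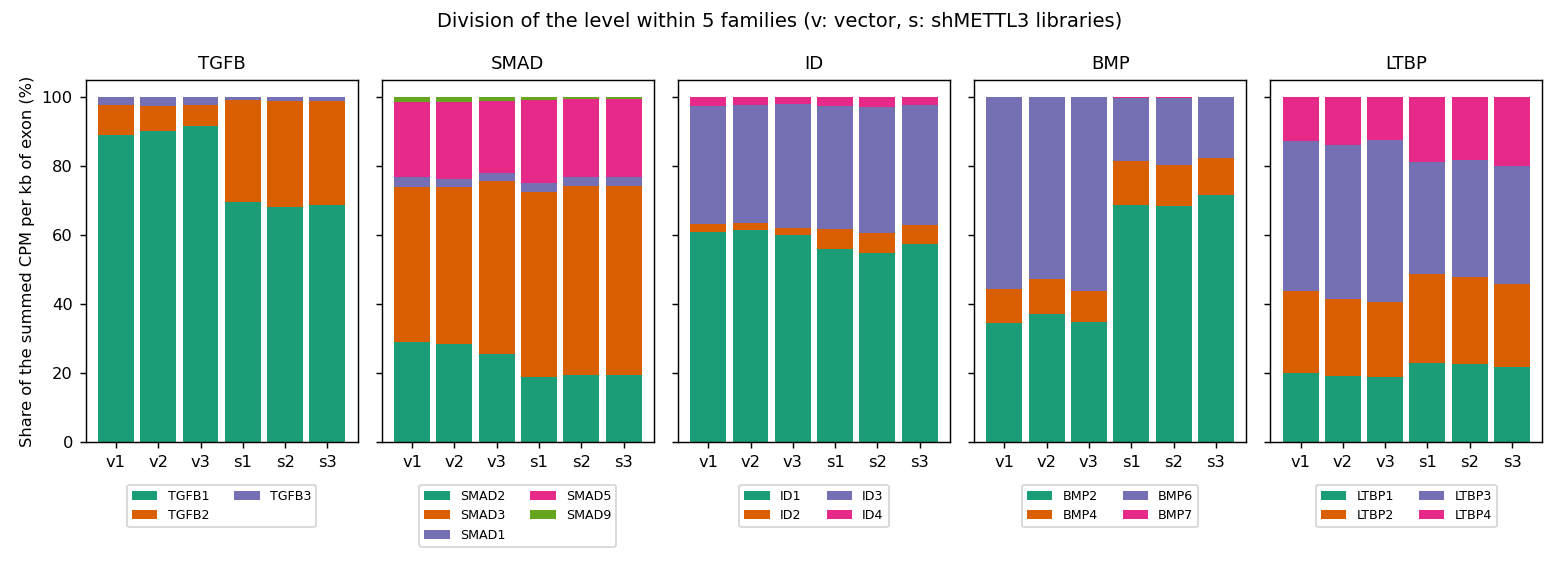
Share of each gene in the summed CPM per kb of exon (y axis, %) for the TGF-beta isoforms, the receptor SMADs, the ID genes, 4 BMP ligands and the latent TGF-beta binding proteins, in each of 3 vector (v) and 3 shMETTL3 (s) libraries. TGFB2 and BMP2 take a larger share in every shMETTL3 library than in any vector library, and BMP6 a smaller one.

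The receptors changed little. Of the 12 receptor genes, all were tested, 4 were higher, 2 lower and 6 not called, against 66.6% called among all tested genes, and log2 fold changes ran from -0.49 to 0.59. BMPR1A, a type I BMP receptor, was the only receptor gene with a change of at least 1.5-fold, from 22.9, 22.1 and 20.7 CPM to 33.7, 33.2 and 31.7 CPM (log2 fold change 0.59, standard error 0.072, adjusted p = 5.47e-08). Its groups did not overlap. The TGF-beta receptor genes TGFBR1 and TGFBR2 were higher by log2 fold changes of 0.21 and 0.36, with TGFBR2 at a mean of 202 ± 1.88 CPM in vector and 259.7 ± 6.18 CPM in shMETTL3 (SD, n = 3). BMPR2, the type II BMP receptor, was higher by 0.24 on the log2 scale, a call that was lost without shMETTL3 replicate 1 (adjusted p = 0.214, edgeR) and without vector replicate 3 (adjusted p = 0.0576, edgeR).

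BAMBI, a decoy receptor that lacks a kinase domain and holds back TGF-beta and BMP signals, was lower in shMETTL3, with a mean of 96.2 ± 3.98 CPM in vector and 68.6 ± 2.13 CPM in shMETTL3 (SD, n = 3) and a log2 fold change of -0.49 (adjusted p = 1.12e-08). BMPR1B was called lower at a log2 fold change of -0.17 (adjusted p = 0.0409, edgeR), but DESeq2 did not call it (adjusted p = 0.0808) and leaving out any library other than vector replicate 3 ended the call. The remaining 6 receptors, ACVR1, ACVR1B, ACVR2A, ACVR2B, TGFBR3 and endoglin (ENG), had log2 fold changes between -0.090 and 0.27 and were not called. ENG, an endothelial co-receptor, had between 14 and 26 counts a library.

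The extracellular regulators held the widest changes in both directions. All 11 were tested, 8 were higher and 2 lower, or 90.9% called against the background of 66.6%. Noggin (NOG), which binds BMPs and blocks their receptor contacts, is annotated at 54671060 to 54672972 on chromosome 17 (GRCh37, plus strand). It fell from 15.3, 16.8 and 18.8 CPM in vector to 1.45, 1.65 and 1.45 CPM in shMETTL3 (log2 fold change -3.47, standard error 0.15, adjusted p = 1.61e-17), 11.2-fold lower. No vector library came near any shMETTL3 library.

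Gremlin (GREM1), another BMP antagonist, moved the other way. GREM1 (chromosome 15 of GRCh37, 33010205 to 33037307, plus strand) was counted 1, 0 and 3 times in vector replicates 1, 2 and 3 and 108, 123 and 91 times in the shMETTL3 replicates, a ratio of 74.3 with a 95% counting interval from 28.7 to 274. It was at or under 3 counts in every vector library and clearly present in every shMETTL3 library. The fitted log2 fold change was 6.09, and it lay between 5.55 and 7.34 when single libraries were left out, the extremes being without vector replicate 2 and 3. Exons of GREM1 overlap 367 bases of GREM1-AS1 on the opposite strand. GREM1-AS1 had no row under that name, so its part in the GREM1 counts cannot be checked. Chordin (CHRD), a further BMP antagonist, was low in both groups, with 22, 12 and 9 counts in vector and 56, 41 and 46 in shMETTL3 (log2 fold change 1.62, standard error 0.29, adjusted p = 1.79e-05). Exons of CHRD overlap those of THPO on the opposite strand, which had 17 counts over the vector and 35 over the shMETTL3 libraries. After these changes, GREM1 and CHRD each had 0.394 CPM per kb of exon in shMETTL3, and NOG had 0.792 CPM per kb, against 8.87 CPM per kb for NOG in vector. This order depends on the length, since GREM1 has 14784 annotated exon bases and 552 coding bases. By coding length the shMETTL3 levels were 10.5 CPM per kb for GREM1, 2.18 for NOG and 0.912 for CHRD, which places GREM1 above NOG.

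The follistatin group was divided. FSTL1, a secreted glycoprotein related to follistatin, went from 78.4, 74.9 and 77.0 CPM to 230.4, 223 and 218 CPM (log2 fold change 1.55, standard error 0.052, adjusted p = 1.02e-19), 2.92-fold higher. Follistatin (FST), which neutralises activins, was higher by 0.46 on the log2 scale. FSTL3, which also binds activins, was lower, with 328, 338 and 344 CPM in vector and 235, 233 and 249 CPM in shMETTL3 (log2 fold change -0.49, standard error 0.05, adjusted p = 1.35e-09). The groups did not overlap for any of these 3 genes, as for 69.4% of all tested genes. Per kb of exon, FSTL3 remained the highest of the 11 regulators in both groups, at 111 CPM per kb in vector and 78.8 in shMETTL3.

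Among the latent TGF-beta binding proteins, matrix proteins of which LTBP1, LTBP3 and LTBP4 tether inactive TGF-beta, 3 of 4 were higher, against 33.7% of all tested genes. LTBP4 rose from 27.9, 30.3 and 30.3 CPM to 51.0, 51.2 and 57.3 CPM (log2 fold change 0.85, standard error 0.068, adjusted p = 1.4e-11), and LTBP1 and LTBP2 had log2 fold changes of 0.51 and 0.46. LTBP3, the highest of the 4 per kb of exon in the vector libraries, was not called, at a log2 fold change of -0.13 (adjusted p = 0.0719, edgeR), but was called lower in 4 of 14 alternatives. Its share of the 4 genes per kb was 45.0% ± 1.76 (SD, n = 3) in vector and 33.5% ± 0.887 in shMETTL3. BMP1, a protease that processes procollagen and cleaves chordin, was higher by 0.30 on the log2 scale.

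**Figure D3:**
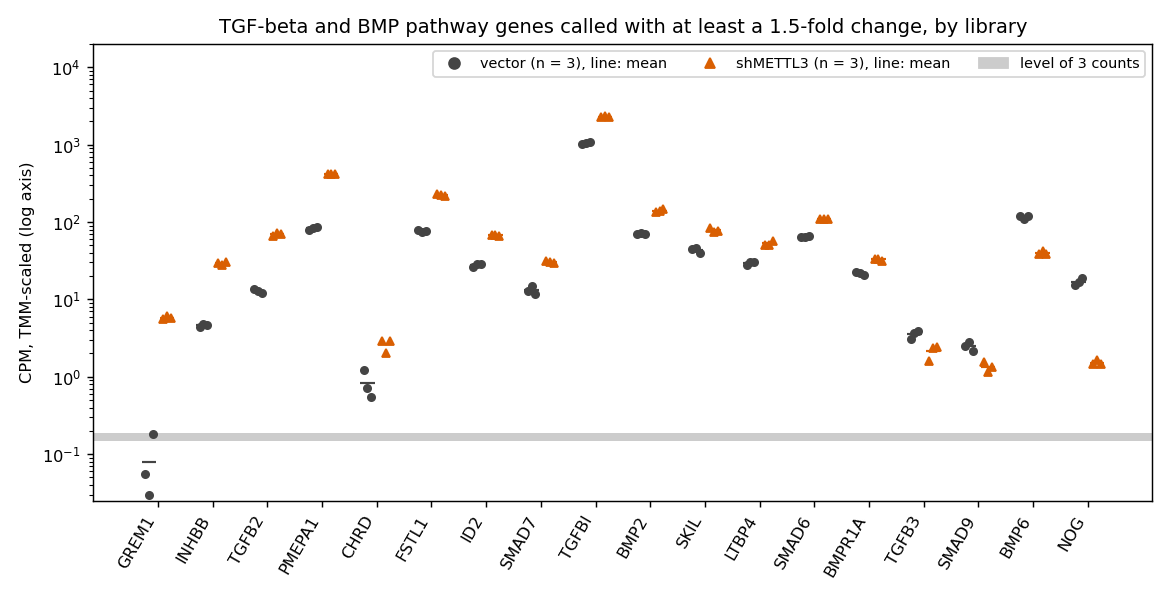
CPM by library (y axis, log scale) for the 18 pathway genes called with at least a 1.5-fold change, ordered from the largest rise to the largest fall. Circles are 3 vector and triangles 3 shMETTL3 libraries, short lines are means, the grey band is the level of 3 counts, and the vector library of GREM1 with 0 counts is drawn at the lower edge. In each of the 18 genes the symbols of the groups are separate.

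All 8 SMADs were tested, and 4 were higher and 2 lower, against 33.7% higher and 32.9% lower of all tested genes. The share called in either direction was near the background of 66.6%. The inhibitory SMADs, which compete with receptor SMADs and recruit ubiquitin ligases to receptors and are themselves induced by the pathway, both rose. SMAD7 (chromosome 18 of GRCh37, 46446223 to 46477335, minus strand) had 12.7, 14.9 and 11.8 CPM in vector and 31.2, 30.3 and 29.9 CPM in shMETTL3 (log2 fold change 1.21, standard error 0.085, adjusted p = 8.7e-13). SMAD6 had 64.5, 63.7 and 65.4 CPM in vector and 109, 110.3 and 108 CPM in shMETTL3 (log2 fold change 0.76, standard error 0.052, adjusted p = 6.62e-13). In both genes the lowest shMETTL3 library stood well above the highest vector library.

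The receptor SMADs changed in unlike directions. SMAD2 was lower, with 335, 341 and 299.7 CPM in vector and 247, 251 and 239 CPM in shMETTL3 (log2 fold change -0.41, standard error 0.053, adjusted p = 1.69e-07), while SMAD3 was higher, with 142, 149.9 and 161 CPM in vector and 192, 194 and 184 CPM in shMETTL3 (log2 fold change 0.33, standard error 0.053, adjusted p = 4.62e-06). The groups did not overlap in either gene. Together SMAD2 and SMAD3 made up 74.5% ± 1.02 (SD, n = 3) of the receptor SMADs per kb of exon in vector and 73.7% ± 0.941 in shMETTL3, a difference smaller than the spread. By coding length it was 87.3% ± 0.160 and 84.9% ± 0.648, with every shMETTL3 library below every vector library. Whether this share differed thus depends on the length used. Which of SMAD2 and SMAD3 was the higher could not be settled, since SMAD2 has 36426 annotated exon bases and the order turned over between the lengths.

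On the BMP side, SMAD5 was higher by 0.21 on the log2 scale, SMAD1 was not called at 0.13, and SMAD9 fell from 2.51, 2.81 and 2.15 CPM to 1.55, 1.15 and 1.32 CPM (log2 fold change -0.89, standard error 0.24, adjusted p = 0.00182), at 21 to 47 counts a library. SMAD4, the partner of all receptor SMADs, was not called, with a log2 fold change of 0.051. Of the ubiquitin ligases, SMURF2 was higher by 0.38 on the log2 scale and SMURF1 was not called at -0.049. SKIL (SnoN), a co-repressor of SMADs that is degraded and then re-induced by TGF-beta, had 44.5, 46.0 and 39.4 CPM in vector and 83.8, 73.9 and 77.1 CPM in shMETTL3 (log2 fold change 0.85, standard error 0.065, adjusted p = 5.12e-12). Its paralog SKI was not called and its groups overlapped, at a log2 fold change of -0.052.

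Of the 6 target genes, 3 were higher and 1 lower, against 33.7% and 32.9% of all tested genes, so that the share called in either direction, 66.7%, was at the background of 66.6%. PMEPA1, a membrane protein that is induced by TGF-beta and sequesters receptor SMADs, is annotated at 56223448 to 56286592 on chromosome 20 (GRCh37, minus strand). It had 79.0, 83.9 and 87.0 CPM in vector and 412, 416 and 419.5 CPM in shMETTL3 (log2 fold change 2.32, standard error 0.053, adjusted p = 2.47e-23), 4.99-fold higher. The 3 shMETTL3 libraries were within a few CPM of each other. NKILA, on the opposite strand with 343 bases of exon overlap, was not called, at a log2 fold change of 0.33 (adjusted p = 0.153, edgeR).

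TGFBI, a secreted matrix protein named for its induction by TGF-beta, was the most highly counted gene of the 52. It had 1018, 1037 and 1088 CPM in vector and 2264, 2344 and 2257 CPM in shMETTL3 (log2 fold change 1.127, standard error 0.049, adjusted p = 3.61e-17), 2.18-fold higher. The spread within a group was small beside the distance between the groups.

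The ID genes encode inhibitors of helix-loop-helix factors and are classic targets of BMP SMADs. Of the 4, ID2 was called higher and ID1 lower, near the background of 33.7% and 32.9% of all tested genes. ID2 went from 25.9, 28.9 and 28.3 CPM to 68.5, 66.9 and 66.9 CPM (log2 fold change 1.29, standard error 0.063, adjusted p = 4.27e-16). ID2-AS1, which shares 145 exon bases with ID2 on the opposite strand, had 135 and 204 counts over the groups and a log2 fold change of 0.47 (adjusted p = 0.0401, edgeR). ID1 was lower, with 416, 445 and 452 CPM in vector and 377, 354 and 388 CPM in shMETTL3 (log2 fold change -0.23, standard error 0.052, adjusted p = 0.000291), a call that was lost with scaling by library size alone (log2 fold change -0.056, adjusted p = 0.342). ID3 and ID4 were not called, at log2 fold changes of -0.074 and 0.042. Per kb of exon, ID1 and ID3 remained far above ID2 in both groups, so that ID2 made up 2.14% ± 0.0678 (SD, n = 3) of the 4 ID genes in vector and 5.65% ± 0.132 in shMETTL3.

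The other genes of the pathway were taken from a list of 92 further ligands, receptors, regulators and common targets. Of these, 61 were tested, 41 were higher and 12 lower, or 67.2% and 19.7% of those tested, against backgrounds of 33.7% and 32.9%. Of the 18 common target genes, 15 were tested, 14 were higher and 0 lower, against the same backgrounds. The whole list was chosen with earlier results of these data known, so these shares are descriptions only. SNAI1, singled out after its value was seen as the tested target that was not called, stood at a log2 fold change of 0.54. FN1 (fibronectin) had 59.9, 61.4 and 62.0 CPM in vector and 1611, 1685 and 1591 CPM in shMETTL3 (log2 fold change 4.74, standard error 0.058, adjusted p = 4.31e-29), 26.7-fold higher.

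Vimentin (VIM), an intermediate filament of mesenchymal cells, had 53.2, 59.1 and 60.3 CPM in vector and 272, 285 and 291 CPM in shMETTL3 (log2 fold change 2.30, standard error 0.057, adjusted p = 1.44e-22). CTGF, which encodes the matrix-associated protein CCN2, was higher by 0.67 on the log2 scale. These targets answer to other pathways as well, and the part of any pathway in their rise was not tested. In the same libraries 5 of the 6 epithelial markers given above were lower, with KRT7 higher.

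Of the 10 tested extracellular regulators on this list, 8 were higher and 1 lower, against 33.7% and 32.9% of all tested genes. THBS1, which activates latent TGF-beta, had 18.8, 22.3 and 21.9 CPM in vector and 48.1, 49.2 and 48.6 CPM in shMETTL3 (log2 fold change 1.21, standard error 0.072, adjusted p = 2.62e-14). BMPER, a secreted BMP modulator, had 4.29, 3.35 and 3.19 CPM in vector and 14.0, 14.3 and 14.1 CPM in shMETTL3 (log2 fold change 1.96, standard error 0.13, adjusted p = 2.02e-13).

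Falls on the list were led among the better expressed genes by the ligand gene BMP5, with 4.57, 5.93 and 4.90 CPM in vector and 2.18, 2.44 and 1.70 CPM in shMETTL3 (log2 fold change -1.26, standard error 0.19, adjusted p = 1.09e-06), and by RGMB, a BMP co-receptor, with a log2 fold change of -1.13. NEDD4L, a ubiquitin ligase that acts on activated SMAD2 and SMAD3, had a log2 fold change of -0.68, and STUB1, another ubiquitin ligase, -0.63. The ligand gene BMP3, which was less expressed, fell further than BMP5, at a log2 fold change of -4.70, and was named after its value was seen. ACVR1C and NEO1, the other tested receptor and co-receptor genes of the list, were also lower, with log2 fold changes of -0.98 and -0.58, and were named after their values were seen. With RGMB these are 3 genes, against 32.9% of all tested genes that were lower, and of the 12 receptor genes described above 4 were higher and 2 lower.

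**Figure D4:**
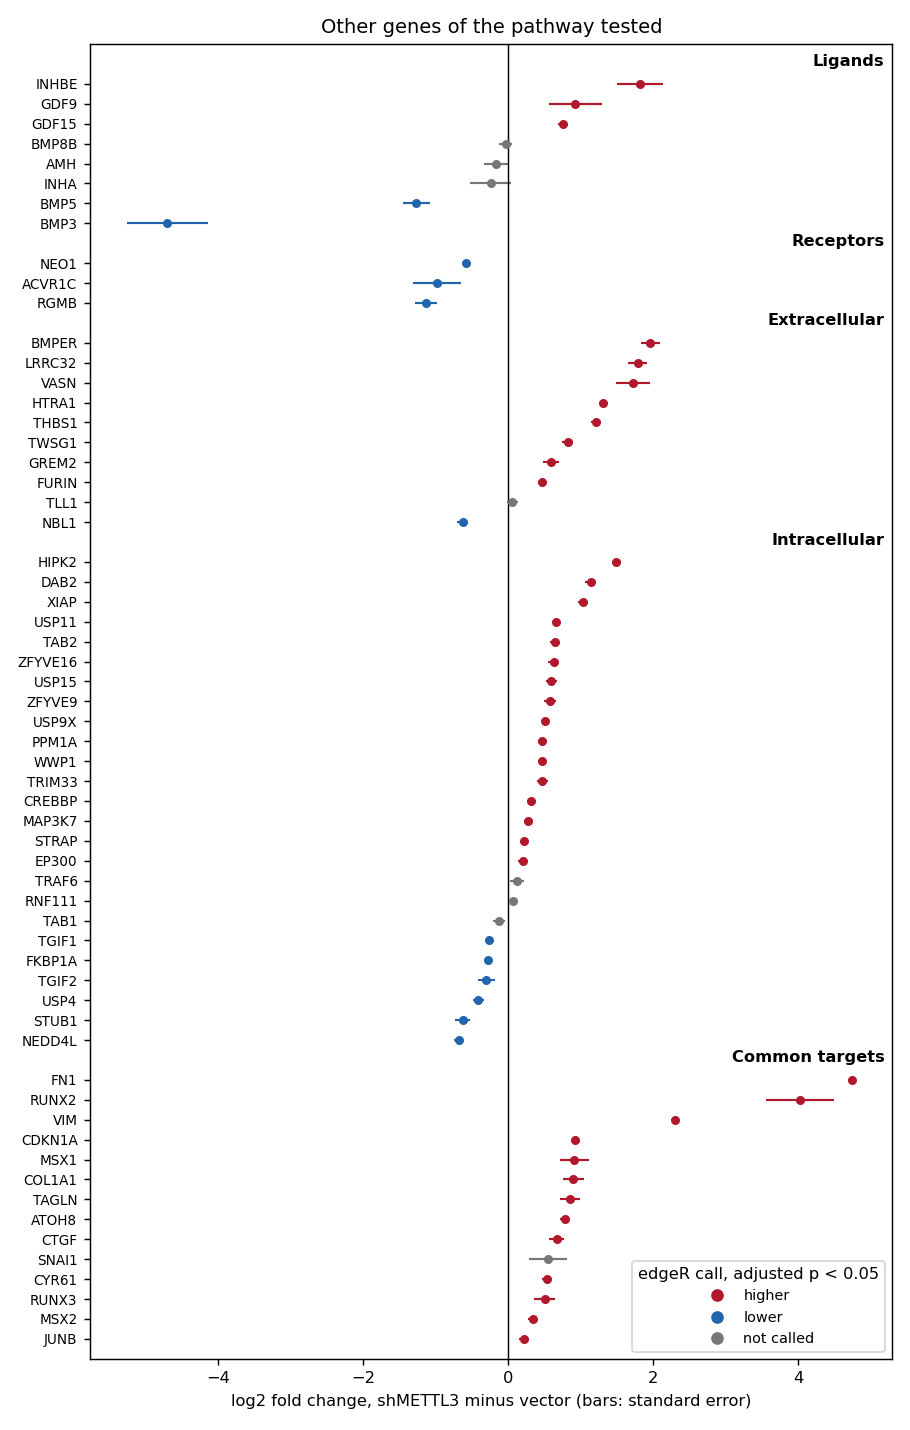
Log2 fold change (shMETTL3 minus vector, x axis) of 60 tested genes among the other pathway genes, by role. Points are edgeR estimates from 3 libraries a group, bars their standard error and colours the call. The common targets drawn lie to the right of 0, from 0.22 to 4.74.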

How the data were processed

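RNA sequencing was performed on total RNA from A549 cells in 3 vector and 3 shMETTL3 libraries, grouped as the labels give them. The deposited table holds raw read counts per gene, which the authors made by alignment to hg19 (GRCh37) with HISAT2 and counting with HTSeq. The submitters' processing notes list cutadapt 3.0, HISAT2 2.2.1, SAMtools 1.13, HTSeq 0.13.5 and DESeq2, while the methods of the study name other versions of HISAT2 and HTSeq. The annotation and strand setting are not given in the sources used here. Of 57781 gene rows, 15125 passed filterByExpr. Counts were fitted with edgeR 4.0.16 (R 4.3.3; TMM scaling, quasi-likelihood test, group as the only term), and p-values were adjusted by Benjamini-Hochberg over all 15125 genes. A gene was called at an adjusted p under 0.05. CPM are scaled by TMM. Levels were compared between genes per kb of exon (GENCODE lifted to GRCh37), with coding length, canonical transcript length and CPM without length as alternatives for family shares and coding length for the BMP antagonists. Promoter windows came from RefSeq on GRCh38.p14, named by gene symbol with no coordinates converted. The script was tested on simulated data.

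Replicates differed by more than counting noise (chi-square per degree of freedom 2.64 to 6.90 within groups), so none was merged. Intervals and floors cover counting error only. The pathway genes and gene lists were chosen with earlier results of these data known. Genes called with at least a 1.5-fold change whose mean log2 CPM was 0 or more, and paralogs called in opposite directions, are given by library, other called genes by fold change and the rest by range. Of the other pathway genes, the 4 largest rises and falls with an average log2 CPM of at least 1 are named, with CTGF and THBS1, and 1 gene that this rule takes is not reported here. Alternatives were other scalings and filters, DESeq2 1.42.0, limma-voom 3.58.1, a replicate block, stricter calls and leaving out each library. Gene lengths from the canonical transcript and from its coding part were added after seeing the data.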

Additional observations from a re-analysis of the deposited data

How the results depend on the processing

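The 18 genes called with at least a 1.5-fold change kept their direction and their call under every alternative that gave a value (13 for GREM1 and CHRD, which could not be tested with 10 counts in every library, and 14 for the others), and METTL3 stayed between -1.38 and -1.19 on the log2 scale. These calls are at an adjusted p under 0.05, and BMPR1A fell below the 1.5-fold minimum under some alternatives, as given above. With the 1.5-fold minimum, 18 of the pathway genes (14 higher, 4 lower) and 34 of the other pathway genes (27 higher, 7 lower) were called. Leaving out each library in turn left 33 to 36 calls, and DESeq2 made 34. Library size alone gave 37 calls (30 higher, 7 lower) and shifted the medians upwards, from 0.0022 to 0.18 for the tested genes and from 0.21 to 0.38 for the pathway genes. Small changes turned over. With library size alone, log2 fold changes became 0.083 for TGFBR3, 0.13 for ACVR1B, 0.0028 for BMPR1B, 0.048 for LTBP3, 0.13 for SMURF1, 0.12 for SKI and 0.10 for ID3. TGFB1 became -0.0012 with RLE scaling, -0.010 with no filter and -0.0018 with DESeq2, and without single libraries ran from -0.092 (vector replicate 1) to 0.11, with -0.024 without vector replicate 2, -0.00033 without shMETTL3 replicate 2 and -0.0093 without shMETTL3 replicate 3. Without vector replicate 1, ENG became -0.0098 and ACVR1 -0.034. Without vector replicate 3, ACVR1 became -0.0070 and SMAD4 -0.012. ACVR1B became 0.0057 without shMETTL3 replicate 1 and ACVR2B -0.020 without shMETTL3 replicate 3. The other extremes without a single library were 0.57 for ENG, 0.080 for ACVR1, -0.072 for ACVR1B and 0.075 for ACVR2B. None of these reversed values was past the threshold. Library size alone also brought calls for TGFB1 (0.18, adjusted p = 0.0211, edgeR), ACVR1 (0.19), ACVR2A (0.45), SMAD4 (0.22) and ID4 (0.22), all higher, beside its upward shift of all tested genes, and LTBP3 was called lower under 4 other alternatives. The cause was not tested. Counted over all 49 tested pathway genes and their alternatives, 20 log2 fold changes turned direction, among them that of BMPR1B, which lost its call with it, 12 others lost a call, 9 gained one and 643 did neither.

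The rise in a family share depended on gene length. In percentage points, TGFB2 gained 31.4 in CPM without length, 20.8 by canonical transcript and 30.6 by coding length, against 22.6 by exon length. ID2 gained 5.25, 4.27 and 5.39 against 3.51. The sum of SMAD2 and SMAD3 moved by -2.58 in CPM and -2.39 by coding length against -0.84, and BMP2 gained 31.3 by canonical transcript against 34.0. The correlations of same-numbered deviations were 0.147, -0.0856 and 0.070, and those of differently numbered ones ran from -0.194 to 0.119. So few values cannot settle whether replicate numbers pair the libraries. With a replicate block 36 pathway genes were called (25 higher, 11 lower).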

Other observations

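The tested genes beside those that changed are given as values. For each of the 18 genes called with at least a 1.5-fold change, the median log2 fold change of the 20 nearest tested genes, 10 on each side, lay between -0.29 (BMP6) and 0.24 (INHBB). The median was 0.060 around TGFB2, 0.056 around PMEPA1, 0.11 around NOG and -0.21 around GREM1. The highest value beside TGFB2, 2.44, was that of its antisense partner TGFB2-AS1.

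GGACT, the most common sequence context of N6-methyladenosine in mRNA, was counted in the canonical transcripts. Its median density was 0.99 per kb in the 25 pathway genes that were higher, 0.72 per kb in the 10 that were lower and 1.01 per kb in the 14 not called. Over all tested genes with a transcript, the medians were 0.89 per kb for 4862 higher, 0.97 per kb for 4635 lower and 0.90 per kb for 4370 not called. ID1 was the 1 pathway gene among those lower that held no GGACT. These counts say nothing of which sites are methylated in A549 cells, which was not measured here.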
